A study of Mus musculus with 8 samples.

Results

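The axon guidance ligands and receptors of mouse pancreatic stellate cells (PSCs) were taken from the count table as every gene whose symbol follows the naming of the semaphorins, plexins A to D, neuropilins, Eph receptors, ephrins, netrins, Slits, Robos and UNC5 receptors. The pattern found 50 of the 12160 genes in the table: 27 ligands, 22 receptors and Unc50, an intracellular membrane protein that shares the start of its name with the UNC5 netrin receptors but is no guidance receptor. By family there were 15 semaphorins, 7 ephrins, 3 netrins and 2 Slits among the ligands, and 7 plexins, 2 neuropilins, 9 Eph receptors, 2 UNC5 receptors and 2 Robos among the receptors.

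These families were named for steering growing axons, and many cells outside the nervous system use them too. Semaphorins are secreted (class 3) or held on the membrane, and signal through plexins, with the neuropilins as co-receptors of the secreted class and of vascular endothelial growth factors. Ephrins and Eph receptor tyrosine kinases both sit on cell surfaces and signal at contacts between cells, where they sort cells and set boundaries. Netrins are laminin-related secreted cues read by DCC, neogenin and the UNC5 receptors, and Slits are secreted cues read by Robos. Stellate cells are the fibroblast-like cells of the pancreas that become cancer-associated fibroblasts in pancreatic tumours, a cancer in which Slit and Robo genes are known to be altered and in which tumour cells often grow along nerves.

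RNA was measured in 8 libraries from a mouse line of immortalized PSCs grown in Matrigel growth factor reduced, a basement membrane gel. Cells spent 4 days in growth medium, which is DMEM with 10% FBS, and then 4 days in the test medium. Medium conditioned by KPC organoids, which are mouse pancreatic cancer cells, was applied from organoids with lentiviral shRNA against Brca2 (shBrca2-CM, n = 3) or with a non-targeting shRNA (shControl-CM, n = 3). The remaining 2 libraries were the control, here called growth medium: their titles and the study's results name DMEM, whereas their recorded treatment and the study's methods name medium conditioned by the PSCs themselves. All 8 libraries come from 1 immortalized line, the replicates are separate gel domes, and the organoid media held less serum than growth medium, so that serum and organoid products cannot be told apart in the comparisons with the control.

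Libraries were 3′-end read counts per gene. Totals ranged from 655996 to 1095534 counts with shBrca2-CM, from 1093609 to 1624392 with shControl-CM and from 4623846 to 5476988 in growth medium, so that 3 counts stood for 2.66 to 4.37 CPM, 1.90 to 2.91 CPM and 0.525 to 0.642 CPM. CPM are counts scaled to a common library total, with TMM factors for library composition, and counting error is the only error that limits from counts cover. All 12 fibroblast and stellate cell markers checked were in the table, with a summed level of 3270 to 3404 CPM with shBrca2-CM, 4242 to 4775 CPM with shControl-CM and 5516 to 6513 CPM in growth medium. Single markers moved both ways within that sum: against growth medium 4 were called higher and 5 lower with shControl-CM, and 5 higher and 5 lower with shBrca2-CM. Vim, which encodes vimentin, fell 10.4-fold and 6.42-fold, while Dcn, which encodes the matrix proteoglycan decorin, rose 22.7-fold and 11.8-fold and Pdpn, which encodes podoplanin, 8.69-fold and 4.10-fold. Acta2, the smooth muscle actin of activated stellate cells, had 170 and 107 counts in growth medium and 1 to 3 in each conditioned library. Between the conditioned media Pdgfra was 1.80-fold higher with shBrca2-CM (adjusted p = 0.052), and Dcn (1.91-fold, adjusted p = 0.00314), Lum (3.01-fold, adjusted p = 0.0847) and Pdpn (2.10-fold, adjusted p = 0.0118) were lower. Of the 9 epithelial markers, Epcam, Cdh1 and 4 others are not in the table, and the 3 that are (Krt18, Krt19 and Muc1) summed to 59.7 to 94.0, 57.0 to 71.0 and 36.8 to 42.0 CPM. All 3 were called against growth medium. Krt18 was higher (5.38-fold with shControl-CM and 6.31-fold with shBrca2-CM), as was Muc1 (3.91-fold and 4.23-fold). Krt19 was lower (9.05-fold and 2.04-fold), and it was 4.33-fold higher with shBrca2-CM than with shControl-CM (adjusted p = 0.0633). Endothelial markers (2 of 6 in the table) summed to at most 1.46, 1.27 and 3.50 CPM. Neuronal ones (2 of 6) summed to 26.6 to 45.2, 18.4 to 25.2 and 41.6 to 55.2 CPM, Schwann cell ones (2 of 4) to at most 3.72, 1.27 and 4.92 CPM, and the immune marker Cd68 (1 of 5) had 8.67 to 18.6, 13.9 to 21.2 and 3.85 to 4.72 CPM. Against growth medium Cd68 was called higher (4.01-fold with shControl-CM and 3.22-fold with shBrca2-CM), and the neuronal marker Tubb3 was called lower (2.97-fold and 1.51-fold). The part of these marker differences in the guidance genes was not tested, and in bulk RNA fewer cells of a type and less RNA per cell cannot be told apart.

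**Figure D1:**
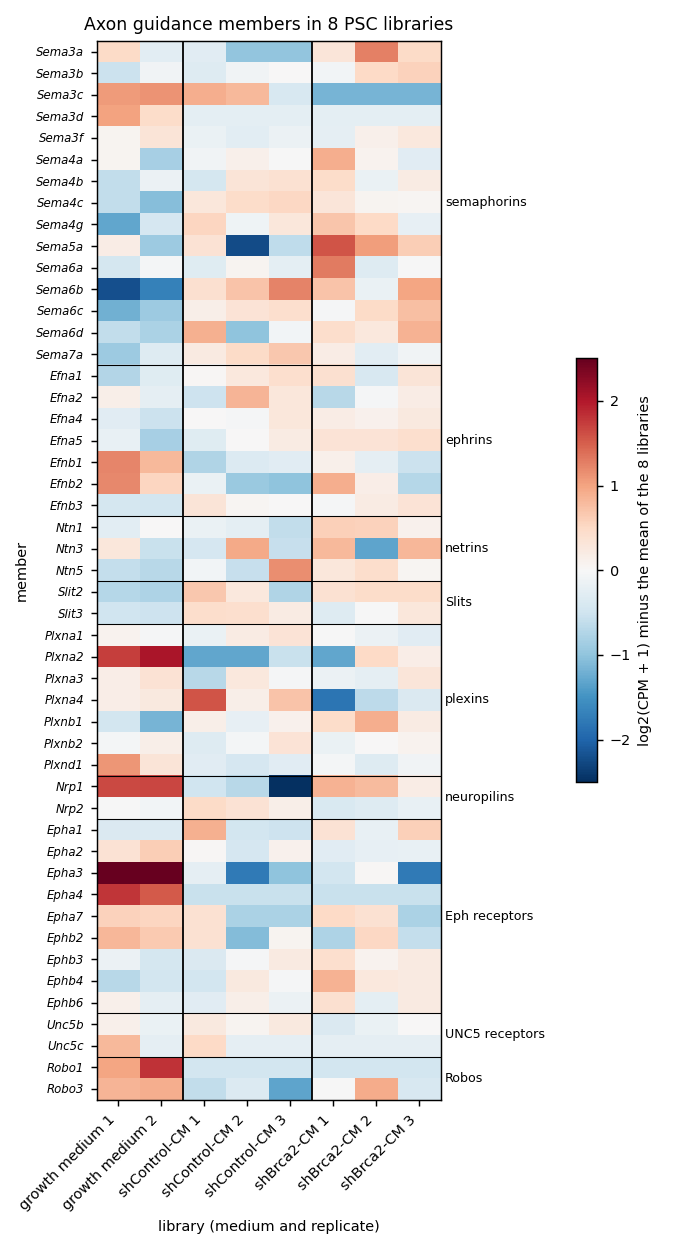
Each row is 1 of 49 guidance genes (Unc50 left out) and each column 1 library. Colour shows log2(CPM + 1) minus the gene's mean over the 8 libraries, with red for above and blue for below that mean. In the rows of Sema6b, Sema6c and Sema4c the growth medium columns are blue and the conditioned medium columns are paler or red, and in the rows of Epha3, Plxna2 and Nrp1 the growth medium columns are the reddest.

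Against growth medium, the membrane-bound semaphorins Sema6b, Sema6c, Sema4c, Sema4g and Sema7a, both Slits, Efna1 and Plxnb1 were called higher with either conditioned medium. Epha2, Epha3, Plxna2, Nrp1, Plxnd1 and the ephrins Efnb1 and Efnb2 were called lower. Some of these calls were often lost in alternative fits: Plxnb1 and Slit2 with shControl-CM in 10 and 8 of 14, and Efnb2 with shBrca2-CM in 9 of 14. Plxnb1 with shBrca2-CM was called in all 14. A gene was called where its adjusted p was below 0.1 (edgeR quasi-likelihood test, adjusted over all genes), its log2 fold change exceeded 0.5 in either direction and its mean normalized count exceeded 5. With shControl-CM 16 of the 49 members tested were called, 9 higher and 7 lower, where 37.1% of all 12086 genes tested were called, 18.2% higher and 18.9% lower. With shBrca2-CM 26 of 49 were called, 17 higher and 9 lower (Unc50 among the lower), where 37.8% of all 12049 genes tested were called, 18.6% higher and 19.2% lower. The members called were thus 32.7% and 53.1% of those tested, the first below and the second above the share over all genes, and those called higher were 18.4% and 34.7%. Groups that did not overlap at all were found for 30 members with shControl-CM (61.2%, beside 59.9% of all genes) and 34 with shBrca2-CM (69.4%, beside 57.5%). The comparisons use the same 2 growth medium libraries, so that the results for the conditioned media are not independent of each other.

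The counts depended on the control libraries and on depth. Without growth medium replicate 1 the calls numbered 7 of 46 members tested with shControl-CM (15.2%, beside 16.4% of all genes) and 17 of 46 with shBrca2-CM (37.0%, beside 36.5%), so that with shBrca2-CM the members' share was then close to that of all genes. With all groups in 1 fit the calls numbered 17 of 49 members tested with shControl-CM (34.7%, beside 38.3% of all genes) and 23 of 49 with shBrca2-CM (46.9%, beside 32.1%). With every library thinned to the smallest total they numbered 10 of 40 members tested (25.0%, beside 28.3%) and 15 of 41 (36.6%, beside 31.3%). The calls lost by thinning were Efna1, Efnb2, Epha3, Plxna2, Plxnb1, Sema4g and Slit2 with shControl-CM, and Efna1, Efna4, Efnb2, Ephb2, Ntn1, Plxna2, Sema3b, Sema4g, Sema5a, Sema6d and Slit3 with shBrca2-CM, and Ephb4 with shControl-CM was gained. The likelihood ratio test of DESeq2 did not call Efna1, Nrp1, Plxnb1, Sema4g and Slit2 with shControl-CM, nor Efna1, Efnb2, Ephb2, Ntn1, Sema3b, Sema4g and Sema7a with shBrca2-CM. Scaling by total counts gave 6 higher and 8 lower with shControl-CM (Sema3f gained) in place of 9 and 7, and moved the median log2 fold change of all genes from -0.10 to -0.21 there.

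Most ligand calls were rises and most receptor calls were falls, and the difference between the roles itself was not tested. Of 27 ligands, 8 rose and 2 fell with shControl-CM, and 14 rose and 2 fell with shBrca2-CM (29.6% and 51.9% higher, 7.41% lower in each, beside 18.2% and 18.6% of all genes higher and 18.9% and 19.2% lower). Of 21 receptors tested, 1 rose and 5 fell with shControl-CM, and 3 rose and 6 fell with shBrca2-CM (4.76% and 14.3% higher, 23.8% and 28.6% lower). The ligands' median log2 fold change was 0.47 and 0.73, beside -0.10 and -0.05 for all genes. The receptors' was -0.40 and -0.72, but these values lean on receptors without a count in conditioned medium, and with such genes put at the bound that 3 counts allow (or at 0 where no bound can be had) they were -0.07 and -0.23, beside -0.07 and -0.02 for all genes. Without growth medium replicate 1 the counts were 4 ligands higher and 1 lower, with 2 receptors lower, for shControl-CM, and 9 higher and 1 lower, with 3 receptors higher and 3 lower, for shBrca2-CM.

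**Figure D2:**
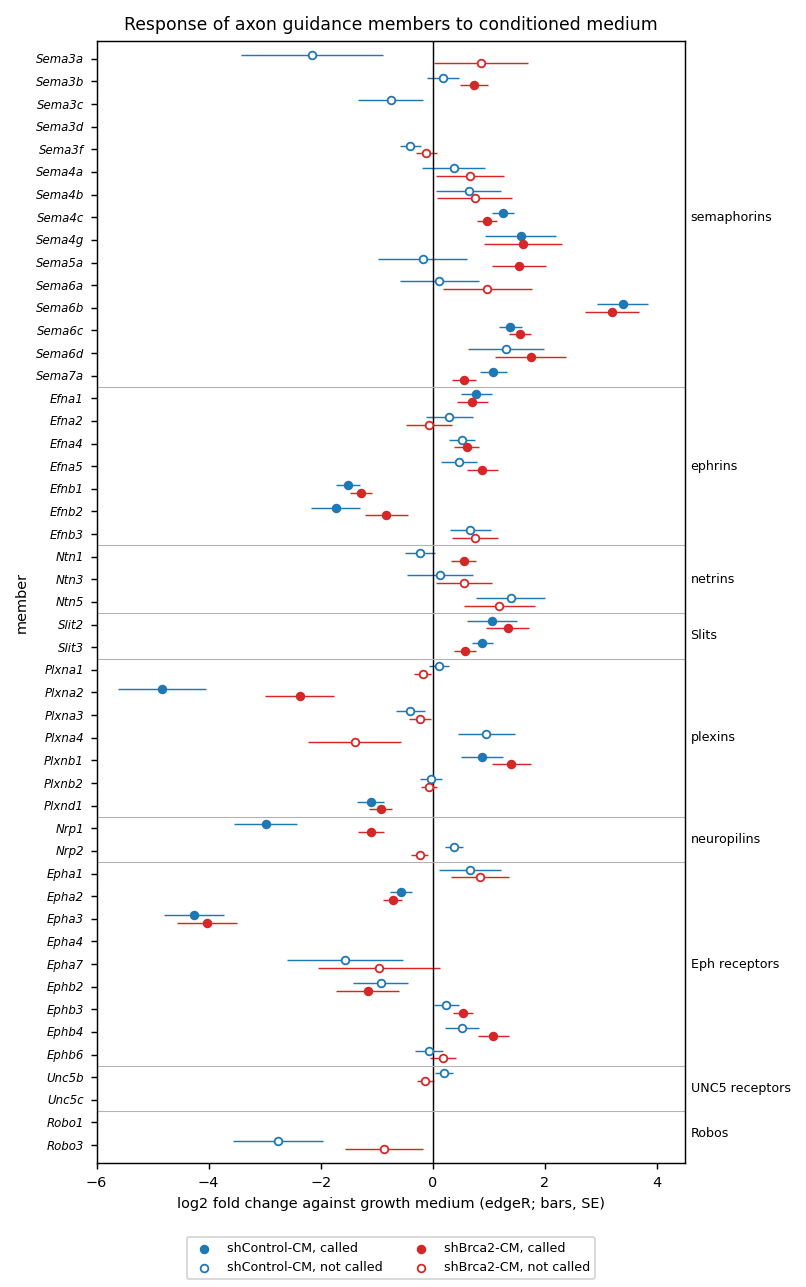
The x axis is the log2 fold change against growth medium (edgeR, bars are the SE) of each guidance gene with shControl-CM (blue) and shBrca2-CM (red). Filled points were called and open points were not, and a gene at 0 counts in every library of a conditioned medium has no point for it. Sema6b lies farthest to the right at 3.39 and 3.19, and Plxna2 with shControl-CM farthest to the left at -4.83.

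Of the 15 semaphorins, 5 rose with shControl-CM and 8 with shBrca2-CM and the others were not called (3 and 5 rose without growth medium replicate 1). With all libraries the semaphorins called higher were thus 33.3% and 53.3%, beside 18.2% and 18.6% of all genes. Class 6 semaphorins, transmembrane ligands that bind plexins A, held the steepest rise. Sema6b had 1.05 and 1.93 CPM in growth medium, 11.4, 14.5 and 21.2 CPM with shControl-CM and 14.6, 7.43 and 17.7 CPM with shBrca2-CM. Every conditioned library lay above both growth medium libraries, and the log2 fold change was 3.39 ± 0.46 (SE) with shControl-CM (10.5-fold, adjusted p = 0.000528) and 3.19 ± 0.48 with shBrca2-CM (9.14-fold, adjusted p = 1.51e-07). The growth medium values rest on 6 and 9 counts. Sema6c, at 24.1 and 29.7 CPM in growth medium, reached 62.7, 72.6 and 76.5 CPM with shControl-CM and 55.4, 79.3 and 96.6 CPM with shBrca2-CM, again without overlap. Its log2 fold change was 1.38 ± 0.21 (adjusted p = 0.00096) and 1.56 ± 0.20 (adjusted p = 2.26e-09). Sema6d was scarcer, with 1.57 and 1.28 CPM in growth medium against 4.37, 3.72 and 6.21 CPM with shBrca2-CM, where it was called (log2 fold change 1.75 ± 0.64, adjusted p = 0.0238), and 6.34, 0.968 and 2.73 CPM with shControl-CM, where it was not (1.30 ± 0.67, adjusted p = 0.163). The Sema6d call was lost without shBrca2-CM replicate 3, at a log2 fold change of 1.46. Sema6a stayed at 1.05 to 5.83 CPM in all 8 libraries and was not called.

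Promoter windows were read for the members that have one, and those of Sema6b, Sema4c and Sema6c, called higher with either medium, are shown. Sema6b and Sema4c were chosen because they alone among the members hold the AP-1 motif, and Sema6c as a gene that rose without it. RefSeq gives 43 of the 50 members a window of 250 bases before and 50 bases after a transcription start (GRCm38.p6, the build named mm10). The windows below are shown for the AP-1 motif TGANTCA, the motif of the Jun and Fos factors that respond to serum and growth factors, and for the GC box GGGCGG, with both strands searched and matches in capitals. Sema6b has 2 annotated starts on the minus strand, at chr17:56133803-56134102 (AP-1 motif from base 203 and GC box from base 116 of the window) and at chr17:56140294-56140593 (GC box from base 211), and Sema4c also has 2 on the minus strand, at chr1:36557508-36557807 (GC boxes from bases 137, 193 and 258, no AP-1 motif) and at chr1:36558332-36558631 (AP-1 motif from base 229 and GC boxes from bases 178 and 190). The starts of Sema6c, on the plus strand, are at chr3:95160170-95160469 (GC boxes from bases 231, 279 and 284) and at chr3:95164089-95164388 (neither motif).
Sema6b, first window: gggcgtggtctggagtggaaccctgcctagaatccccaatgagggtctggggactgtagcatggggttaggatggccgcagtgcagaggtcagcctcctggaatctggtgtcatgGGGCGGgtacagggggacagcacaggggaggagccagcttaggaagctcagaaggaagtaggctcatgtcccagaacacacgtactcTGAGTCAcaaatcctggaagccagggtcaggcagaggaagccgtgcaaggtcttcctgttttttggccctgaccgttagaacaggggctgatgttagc
Sema6b, second window: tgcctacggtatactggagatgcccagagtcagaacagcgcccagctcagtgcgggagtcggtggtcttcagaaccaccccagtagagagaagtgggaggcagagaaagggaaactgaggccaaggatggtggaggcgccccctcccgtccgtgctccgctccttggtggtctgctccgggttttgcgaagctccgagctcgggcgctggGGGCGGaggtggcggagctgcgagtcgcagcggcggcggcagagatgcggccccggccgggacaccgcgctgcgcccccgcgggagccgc
Sema4c, first window: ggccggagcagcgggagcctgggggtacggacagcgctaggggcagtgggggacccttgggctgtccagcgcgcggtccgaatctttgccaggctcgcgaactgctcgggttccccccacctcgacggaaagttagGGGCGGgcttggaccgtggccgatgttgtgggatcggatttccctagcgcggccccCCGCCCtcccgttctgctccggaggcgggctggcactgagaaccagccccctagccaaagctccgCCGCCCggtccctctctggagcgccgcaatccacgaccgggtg
Sema4c, second window: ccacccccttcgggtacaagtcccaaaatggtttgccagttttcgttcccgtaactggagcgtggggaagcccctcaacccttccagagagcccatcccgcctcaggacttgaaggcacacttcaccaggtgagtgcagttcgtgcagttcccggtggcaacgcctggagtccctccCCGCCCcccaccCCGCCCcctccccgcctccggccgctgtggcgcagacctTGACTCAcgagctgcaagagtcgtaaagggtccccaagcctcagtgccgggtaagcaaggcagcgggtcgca
Sema6c, first window: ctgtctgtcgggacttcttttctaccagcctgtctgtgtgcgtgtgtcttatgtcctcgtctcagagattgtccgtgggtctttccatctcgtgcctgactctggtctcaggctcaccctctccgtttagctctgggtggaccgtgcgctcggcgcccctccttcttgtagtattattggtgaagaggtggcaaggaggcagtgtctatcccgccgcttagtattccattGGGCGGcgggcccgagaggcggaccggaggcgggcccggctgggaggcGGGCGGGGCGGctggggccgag
Sema6c, second window: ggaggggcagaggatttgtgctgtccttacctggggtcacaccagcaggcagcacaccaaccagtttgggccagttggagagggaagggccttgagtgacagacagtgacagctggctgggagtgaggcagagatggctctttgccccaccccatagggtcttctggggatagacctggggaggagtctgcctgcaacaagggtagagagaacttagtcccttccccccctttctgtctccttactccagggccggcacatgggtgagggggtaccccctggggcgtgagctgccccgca

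The AP-1 motif was present in the windows of 2 of the 43 members, Sema4c and Sema6b, a share of 4.65% beside 6.31% of the 9638 genes of the table that have a window and 8.97% of all 27025 genes with one. The GC box was in 34 of 43 (79.1%) beside 69.8% and 38.2%. The heat shock element GAANNTTC, the site of heat shock factors, was in 0 of 43 beside 6.70% and 9.04%. None of these motifs contains another, and a match describes letters in the window only.

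The class 4 semaphorins, transmembrane ligands of plexins B, gave called rises in Sema4c and Sema4g. Sema4c, the member of its class with the most counts, had 55.8 and 40.2 CPM in growth medium, 104, 118 and 123 CPM with shControl-CM and 105, 89.2 and 88.7 CPM with shBrca2-CM. No conditioned library came down to the growth medium values, and the log2 fold change was 1.25 ± 0.20 (adjusted p = 0.00128) and 0.96 ± 0.18 (adjusted p = 1.05e-05). Sema4g was near the limit of detection, with 4 and 10 counts in growth medium and 3 to 8 counts in each conditioned library, and its log2 fold changes were 1.57 ± 0.63 (adjusted p = 0.0805) and 1.60 ± 0.70 (adjusted p = 0.0613). Its calls did not survive leaving out single libraries: with shControl-CM the call was lost without shControl-CM replicate 1, shControl-CM replicate 2 or growth medium replicate 1 (values of 0.93 to 1.72), and with shBrca2-CM without shBrca2-CM replicate 1, shBrca2-CM replicate 2 or either growth medium library (0.95 to 2.51). Sema4a and Sema4b were at 1.50 to 7.29 CPM and were not called.

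Sema7a, which is held on the membrane by a lipid anchor and binds plexin C1 and integrins, had 28.0 and 42.8 CPM in growth medium, 62.7, 75.5 and 86.7 CPM with shControl-CM and 61.2, 44.6 and 50.5 CPM with shBrca2-CM. Both conditioned groups were entirely above the growth medium libraries, by a log2 fold change of 1.08 ± 0.24 (adjusted p = 0.00748) and 0.56 ± 0.21 (adjusted p = 0.0274). Without growth medium replicate 1 neither was called (0.81 and 0.26), and the shBrca2-CM call was also lost without shBrca2-CM replicate 1 (0.45). Sema5a, a transmembrane semaphorin with thrombospondin repeats, had 4.37 and 1.50 CPM in growth medium, 5.07, 0 and 2.05 CPM with shControl-CM and 13.1, 8.67 and 6.21 CPM with shBrca2-CM. It was called with shBrca2-CM alone (log2 fold change 1.53 ± 0.48, adjusted p = 0.00856, 2.50 without growth medium replicate 1, and 0.34 with no call at an adjusted p of 0.71 after thinning), and its value with shControl-CM was -0.18 ± 0.79 (adjusted p = 0.875).

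The secreted class 3 semaphorins, which signal through neuropilins, gave 1 call among 5 genes. Sema3b had 14.5 and 20.3 CPM in growth medium, 17.1, 20.3 and 21.8 CPM with shControl-CM and 20.4, 31.0 and 32.8 CPM with shBrca2-CM, and was called with shBrca2-CM (log2 fold change 0.73 ± 0.26, adjusted p = 0.0174) though its lowest library stood only just above the higher control. That call was lost without shBrca2-CM replicate 3 (0.59) or growth medium replicate 1 (0.49), and with all libraries thinned to the smallest total the value was -0.0627. Sema3f, the most abundant of the class, stayed between 48.4 and 73.2 CPM with no call except with shControl-CM under scaling by total counts. The others were near or under detection. Sema3c had 21 and 18 counts in growth medium, 5, 3 and 1 with shControl-CM and 0 in all 3 shBrca2-CM libraries, Sema3d had 8 and 3 counts in growth medium and 0 in all 6 conditioned libraries, and Sema3a had 10 and 3 counts against 1 to 3 with shBrca2-CM and 0 to 1 with shControl-CM. At these depths 3 counts in the smallest shBrca2-CM library stand for 4.37 CPM, above the growth medium level of Sema3c (3.67 and 3.85 CPM), so that a bound from that library gives no fold for it. The fitted adjusted p for Sema3c with shBrca2-CM was 0.00159 (edgeR), with a mean count too low for a call.

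Slit2 and Slit3, the secreted ligands of Robos, were called higher with either medium. Slit3, the more counted, had 38.1 and 37.7 CPM in growth medium, 74.1, 73.6 and 62.8 CPM with shControl-CM and 43.7, 54.5 and 66.5 CPM with shBrca2-CM. The groups did not overlap, and the log2 fold change was 0.88 ± 0.19 (adjusted p = 0.00642) and 0.57 ± 0.20 (adjusted p = 0.0159), the second lost without shBrca2-CM replicate 3 (0.39). Slit2 had 4.90 and 4.71 CPM in growth medium, 14.6, 10.7 and 4.78 CPM with shControl-CM and 11.7, 12.4 and 12.4 CPM with shBrca2-CM. The 3 shBrca2-CM libraries were close together and well above the control (log2 fold change 1.34 ± 0.38, adjusted p = 0.00354). With shControl-CM, replicate 3 lay between the control libraries, and the call (1.05 ± 0.45, adjusted p = 0.0985) was lost without shControl-CM replicate 1, shControl-CM replicate 2 or either growth medium library (0.60 to 1.09).

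Their receptors were scarcely detected. Robo1, the main Slit receptor of many tissues, had 10 and 18 counts in growth medium (1.75 and 3.85 CPM) and 0 counts in all 6 conditioned libraries. Its mean in growth medium lies below what 3 counts stand for in the smallest conditioned library of either group, so that a bound from that library gives no fold. The fitted adjusted p for Robo1 was 0.0269 with shControl-CM and 0.00964 with shBrca2-CM (edgeR), with mean counts too low for a call. Robo3, a Robo that in mammals does not bind Slits with high affinity, had 20 and 17 counts in growth medium, 1, 1 and 0 with shControl-CM and 1, 3 and 1 with shBrca2-CM. Over pooled counts growth medium stood 7.26-fold above shControl-CM (exact 95% counting interval 1.87 to 62.1) and 1.87-fold above shBrca2-CM (0.732 to 6.08), and neither was called because the mean count was too low or the p too high. Leaving out any 1 shControl-CM library raised the mean count enough for Robo3 to be called there, at log2 fold changes of -3.30 to -2.15.

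**Figure D3:**
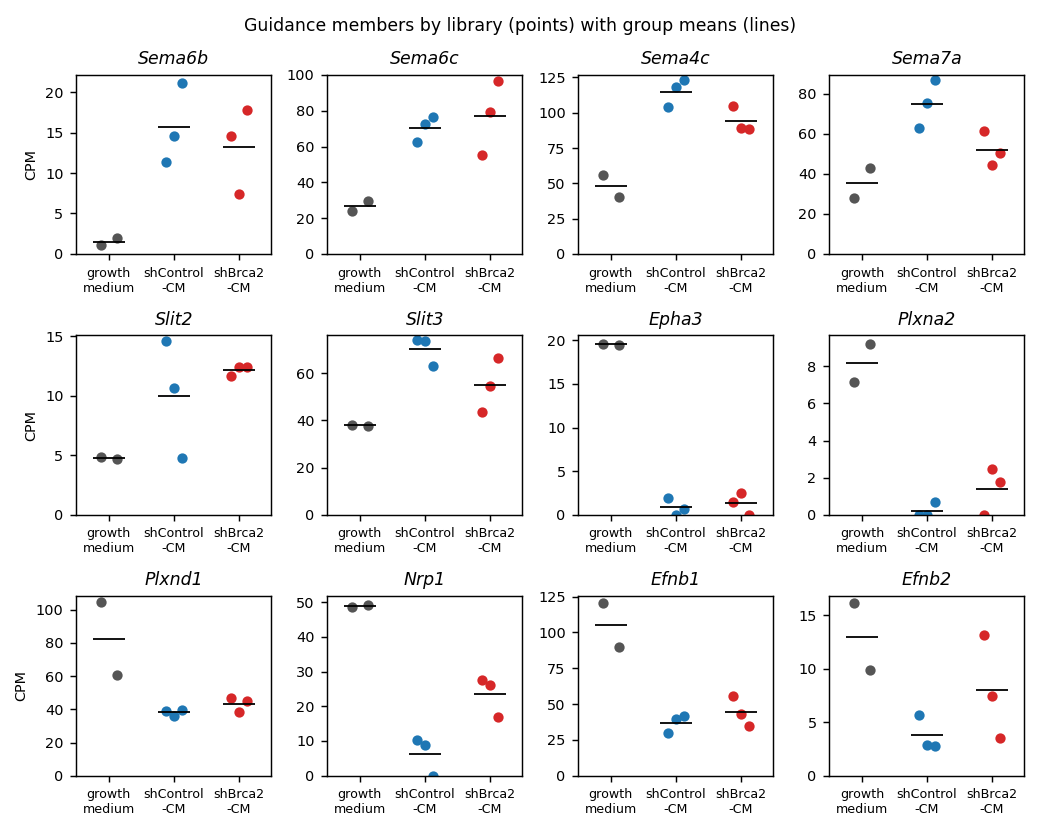
CPM of 12 guidance genes in growth medium (grey, 2 libraries), shControl-CM (blue, 3) and shBrca2-CM (red, 3), where each point is 1 library and each line a group mean. In the panels of Sema6b, Sema6c, Sema4c, Sema7a and Slit3 every conditioned library lies above the growth medium libraries, and in those of Epha3, Plxna2, Plxnd1, Nrp1 and Efnb1 every conditioned library lies below them.

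Of the 7 ephrins, Efna1 was called higher and Efnb1 and Efnb2 lower with shControl-CM, and Efna1, Efna4 and Efna5 higher and Efnb1 and Efnb2 lower with shBrca2-CM. Efnb1, a transmembrane ligand of EphB receptors, had 121 and 89.5 CPM in growth medium, 29.8, 39.7 and 41.6 CPM with shControl-CM and 55.4, 43.4 and 34.6 CPM with shBrca2-CM. It fell without overlap by a log2 fold change of -1.52 ± 0.21 (2.86-fold, adjusted p = 0.000645) and -1.28 ± 0.19 (2.43-fold, adjusted p = 1.31e-07). Efnb2, the ligand of EphB4 on arterial cells, had 16.1 and 9.85 CPM in growth medium, 5.70, 2.91 and 2.73 CPM with shControl-CM and 13.1, 7.43 and 3.55 CPM with shBrca2-CM. It was clear of the control with shControl-CM (-1.73 ± 0.44, adjusted p = 0.0141) and overlapped it with shBrca2-CM (-0.83 ± 0.39, adjusted p = 0.0835). Neither Efnb2 call held without growth medium replicate 1 (-1.33 and -0.43), and with shBrca2-CM the call was also lost without shBrca2-CM replicates 2 or 3 (-0.84 and -0.38). Efnb3, the last of its class, was at 5.14 to 9.75 CPM, with every conditioned library above the growth medium libraries, and was not called (log2 fold changes of 0.67 and 0.75).

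Ephrin-A ligands, anchored to the membrane by lipid, gave called rises in 1 of 4 genes with shControl-CM and in 3 of 4 with shBrca2-CM. Of all genes 18.2% and 18.6% were called higher. Efna1, a ligand of EphA2, had 12.8 and 17.3 CPM in growth medium, 22.2, 26.1 and 29.4 CPM with shControl-CM and 29.1, 16.1 and 27.5 CPM with shBrca2-CM. Only the shBrca2-CM group reached into the control range, and the log2 fold changes were 0.78 ± 0.28 (adjusted p = 0.0556) and 0.70 ± 0.27 (adjusted p = 0.0342). With shControl-CM the call was lost without shControl-CM replicate 2 or either growth medium library (0.58 to 1.01), and with shBrca2-CM without shBrca2-CM replicates 1 or 3 or growth medium replicate 1 (0.48 to 0.59). Efna5, a ligand of EphA receptors including EphA3, had 15.9 and 9.85 CPM in growth medium, 14.6, 18.4 and 21.2 CPM with shControl-CM and 23.3, 23.5 and 24.8 CPM with shBrca2-CM. It was called with shBrca2-CM (0.88 ± 0.28, adjusted p = 0.00849) and not with shControl-CM (0.47 ± 0.32, adjusted p = 0.284). Efna4 was likewise called with shBrca2-CM (0.60 ± 0.22, adjusted p = 0.0219), with 0.52 ± 0.23 (adjusted p = 0.11, called without shControl-CM replicate 1 at 0.57) with shControl-CM, and Efna2 was called with neither.

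Of the 9 Eph receptors, 0 were called higher and 2 lower with shControl-CM, and 2 higher and 3 lower with shBrca2-CM. The calls were 22.2% and 55.6% of them, beside 37.1% and 37.8% of all genes. Epha3 gave the deepest fall among those with counts in every group. Epha3 had 112 and 91 counts in growth medium (19.6 and 19.5 CPM), 3, 0 and 1 counts with shControl-CM and 1, 2 and 0 with shBrca2-CM. The growth medium libraries agree closely, and no conditioned library rose above 2.48 CPM. Over pooled counts the growth medium level was 19.9-fold that of shControl-CM (exact 95% counting interval 7.66 to 73.8) and 17.1-fold that of shBrca2-CM (5.76 to 83.5), with adjusted p = 0.000341 and 9.19e-09. Its calls were kept without any 1 library, at log2 fold changes of -5.48 (without shControl-CM replicate 1) to -3.86 with shControl-CM and of -5.04 (without shBrca2-CM replicate 2) to -3.25 (without shBrca2-CM replicate 3) with shBrca2-CM. After thinning, the shControl-CM call was lost because the mean count was then 4.96, with an adjusted p of 0.0013. Epha4 had 23 and 15 counts in growth medium and 0 in all 6 conditioned libraries. By the bound of 3 counts in the smallest library it was at least 1.24-fold lower with shControl-CM (called only without shControl-CM replicate 2). With shBrca2-CM that rule, which uses the smallest library alone, gives no bound. The fitted adjusted p for Epha4 was 0.00957 with shControl-CM and 0.00194 with shBrca2-CM (edgeR), with mean counts too low for a call. Both genes encode kinases that bind ephrin-A ligands.

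The Epha3 promoter window, chr16:63864126-63864425 on the minus strand of GRCm38.p6, is shown as the example of a gene that fell, for its TEAD motif GGAATG, the site of the factors that YAP and TAZ act through. The motif, searched on both strands, starts at base 7.
Epha3: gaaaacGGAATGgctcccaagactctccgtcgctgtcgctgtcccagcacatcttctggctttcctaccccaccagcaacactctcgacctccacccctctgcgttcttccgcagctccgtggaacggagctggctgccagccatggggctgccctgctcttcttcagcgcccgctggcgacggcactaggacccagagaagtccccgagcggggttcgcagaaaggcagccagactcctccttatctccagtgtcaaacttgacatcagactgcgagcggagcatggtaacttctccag
Windows of 8 of the 43 members held the TEAD motif (Efnb2, Epha1, Epha2, Epha3, Ntn3, Plxnb1, Plxnd1 and Sema4a), which is 18.6% beside 14.3% of the genes of the table with a window and 16.6% of all genes with one. Of the 7 members called lower with shControl-CM that have a window 4 held it, and of the 9 called higher 1 did. With shBrca2-CM the motif was held by 4 of 9 called lower and 1 of 15 called higher. All these counts are too small to be set against the share over all genes.

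Epha2, the Eph receptor with the most counts and a receptor of ephrin-A1, had 88.8 and 106 CPM in growth medium, 71.0, 51.3 and 74.4 CPM with shControl-CM and 56.8, 59.5 and 60.3 CPM with shBrca2-CM. All conditioned libraries were below the control, by -0.56 ± 0.20 (adjusted p = 0.0534) and -0.72 ± 0.17 (adjusted p = 0.000616), and the first call was lost without shControl-CM replicate 2 or either growth medium library (-0.68 to -0.43). Among EphB receptors, Ephb4, the partner of ephrin-B2, had 11.7 and 13.9 CPM in growth medium, 13.9, 23.2 and 19.1 CPM with shControl-CM and 36.4, 23.5 and 23.1 CPM with shBrca2-CM. It was called with shBrca2-CM (1.08 ± 0.27, adjusted p = 0.000968) and not with shControl-CM (0.52 ± 0.30, adjusted p = 0.209), where it was called after thinning and, at 0.71, without shControl-CM replicate 1. Ephb3 was called higher with shBrca2-CM (0.54 ± 0.18, adjusted p = 0.0151, and below the fold threshold at 0.46 without shBrca2-CM replicate 1 and at 0.41 without growth medium replicate 2), and Ephb2, at 37 and 26 counts in growth medium and 1 to 4 with shBrca2-CM, lower (-1.16 ± 0.56, adjusted p = 0.0951). That Ephb2 call was lost without shBrca2-CM replicates 1 or 3 or growth medium replicate 1 (-1.04 to -0.84).

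Of the 7 plexins, the semaphorin receptors, 1 was called higher and 2 lower with each medium. These calls were 42.9% of the plexins, near the 37.1% and 37.8% of all genes. Plxnb2, the plexin with the most counts, stood between 431 and 682 CPM in all 8 libraries, with log2 fold changes of -0.04 (95% interval -0.46 to 0.39) and -0.07 (-0.34 to 0.21), so that these data leave little room for a change beyond 1.5-fold in it. Plxnd1, a receptor of secreted semaphorins known from blood vessel patterning, had 105 and 60.6 CPM in growth medium, 39.3, 35.8 and 39.6 CPM with shControl-CM and 46.6, 38.4 and 45.2 CPM with shBrca2-CM. It fell by -1.11 ± 0.25 (adjusted p = 0.00743) and -0.93 ± 0.20 (adjusted p = 0.000144), and both calls were lost without growth medium replicate 1, at log2 fold changes of -0.65 and -0.48. Plxna2, which joins neuropilins in class 3 semaphorin receptors, had 41 and 43 counts in growth medium, 0, 0 and 1 with shControl-CM and 0, 2 and 2 with shBrca2-CM. Growth medium stood 32.9-fold above shControl-CM (exact 95% counting interval 5.75 to 1316) and 5.30-fold above shBrca2-CM (1.99 to 19.9), with adjusted p = 0.00163 and 0.00129. Without either growth medium library the mean count of Plxna2 was too low for a call in each comparison. Plxnb1 went the other way, from 8.04 and 4.49 CPM to 12.7, 9.68 and 12.3 CPM with shControl-CM and 16.0, 22.3 and 13.3 CPM with shBrca2-CM (0.88 ± 0.37, adjusted p = 0.0945, and 1.40 ± 0.35, adjusted p = 0.000779), where leaving out any 1 of the 5 libraries ended the first call (0.53 to 1.37) and none ended the second.

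Netrins and UNC5 receptors gave 1 call. Ntn1, the netrin with the most counts, had 23.8 and 29.1 CPM in growth medium, 25.4, 24.2 and 18.4 CPM with shControl-CM and 43.7, 43.4 and 31.0 CPM with shBrca2-CM. It was called higher with shBrca2-CM (0.55 ± 0.22, adjusted p = 0.0427), a call lost without shBrca2-CM replicates 1 or 2 or growth medium replicate 1 (0.40 to 0.47), and its value with shControl-CM was -0.23 ± 0.26 (adjusted p = 0.536). Ntn5, named after its values were seen, had 11 and 8 counts in growth medium (1.92 and 1.71 CPM), 5, 2 and 13 counts with shControl-CM and 3, 4 and 4 with shBrca2-CM. In CPM these are 3.17, 1.94 and 8.88 with shControl-CM and 4.37, 4.96 and 3.55 with shBrca2-CM. Every conditioned library was above the growth medium libraries, and the log2 fold changes of 1.39 ± 0.61 (adjusted p = 0.109) and 1.19 ± 0.64 (adjusted p = 0.134) were not called. With shControl-CM it was called with all groups in 1 fit and without shControl-CM replicate 1 or 2, and with shBrca2-CM when genes under 30 counts were dropped. Unc5b, the UNC5 receptor with counts throughout, stood between 112 and 171 CPM and was called with neither medium, and Unc5c had 6 counts in 1 growth medium library and 1 count in the rest together. Unc50, which is no guidance gene, fell with shBrca2-CM (-0.85 ± 0.20, adjusted p = 0.000406).

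Between the conditioned media, which differ in the shRNA that the organoids carried, the neuropilin Nrp2 was the only member called, and it was lower with shBrca2-CM. This is 1 of 40 members tested, 2.50%, where 3.09% of all 11035 genes tested were called, 1.54% higher and 1.55% lower. How many separately made media the replicates used is not given. Knockdown of Brca2, other effects of the shRNA and the batch of medium therefore cannot be told apart. Nrp2, the co-receptor of Sema3f and of VEGF-C, had 178, 187 and 206 CPM with shBrca2-CM, 323, 297 and 257 CPM with shControl-CM, while the growth medium libraries held 230 and 221 CPM. The 3 groups did not overlap, with growth medium between the conditioned media, and the log2 fold change was -0.60 ± 0.14 (SE, 95% interval -0.90 to -0.29, 1.51-fold, adjusted p = 0.0533). The call was lost without shBrca2-CM replicate 1, 2 or 3 or shControl-CM replicate 2 (adjusted p = 0.156 to 0.264, log2 fold changes of -0.65 to -0.55), and with scaling by total counts (-0.49, adjusted p = 0.127), which moves the median of all genes here from 0.03 to 0.14. Against growth medium Nrp2 was not called in either direction, at 0.37 ± 0.16 with shControl-CM (adjusted p = 0.103) and -0.24 ± 0.14 with shBrca2-CM (adjusted p = 0.196).

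The Nrp2 promoter window, chr1:62703067-62703366 on the plus strand of GRCm38.p6, is shown because Nrp2 is the member that differed between the conditioned media. It holds the GC box from bases 49, 78, 140, 145 and 224, those at 140 and 145 overlapping by a base, and none of the AP-1, TEAD or heat shock element letters.
Nrp2: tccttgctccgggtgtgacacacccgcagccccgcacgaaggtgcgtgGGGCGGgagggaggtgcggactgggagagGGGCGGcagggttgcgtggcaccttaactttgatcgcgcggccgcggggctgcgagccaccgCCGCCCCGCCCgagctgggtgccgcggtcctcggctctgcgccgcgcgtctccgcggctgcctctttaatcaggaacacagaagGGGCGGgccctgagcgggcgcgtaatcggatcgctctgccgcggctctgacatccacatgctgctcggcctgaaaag

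Nrp1, the sister co-receptor for Sema3a and VEGF-A, had 48.6 and 49.2 CPM in growth medium, 10.1, 8.72 and 0 CPM with shControl-CM and 27.7, 26.0 and 16.8 CPM with shBrca2-CM. The control libraries agree closely and lie above all others, and each shBrca2-CM library lies above each shControl-CM library. It fell against growth medium by -2.98 ± 0.56 with shControl-CM (7.89-fold, adjusted p = 0.00343, not called by DESeq2 at an adjusted p of 0.155) and by -1.10 ± 0.23 with shBrca2-CM (2.15-fold, adjusted p = 7.73e-05). The first value was -3.73 without shControl-CM replicate 1 and -2.34 without shControl-CM replicate 3. Between the conditioned media its log2 fold change was 1.90 ± 0.64 (95% interval 0.52 to 3.29, adjusted p = 0.191), which is no call. The value turns on shControl-CM replicate 3, which had 0 counts of Nrp1 where replicates 1 and 2 had 16 and 9: without it the log2 fold change was 1.26 and was called (adjusted p = 0.0681). It was also called without shControl-CM replicate 1 (2.60, adjusted p = 0.0319) and with all 3 groups in 1 fit (1.89, adjusted p = 0.0945), and in no other of the 12 alternatives run.

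**Figure D4:**
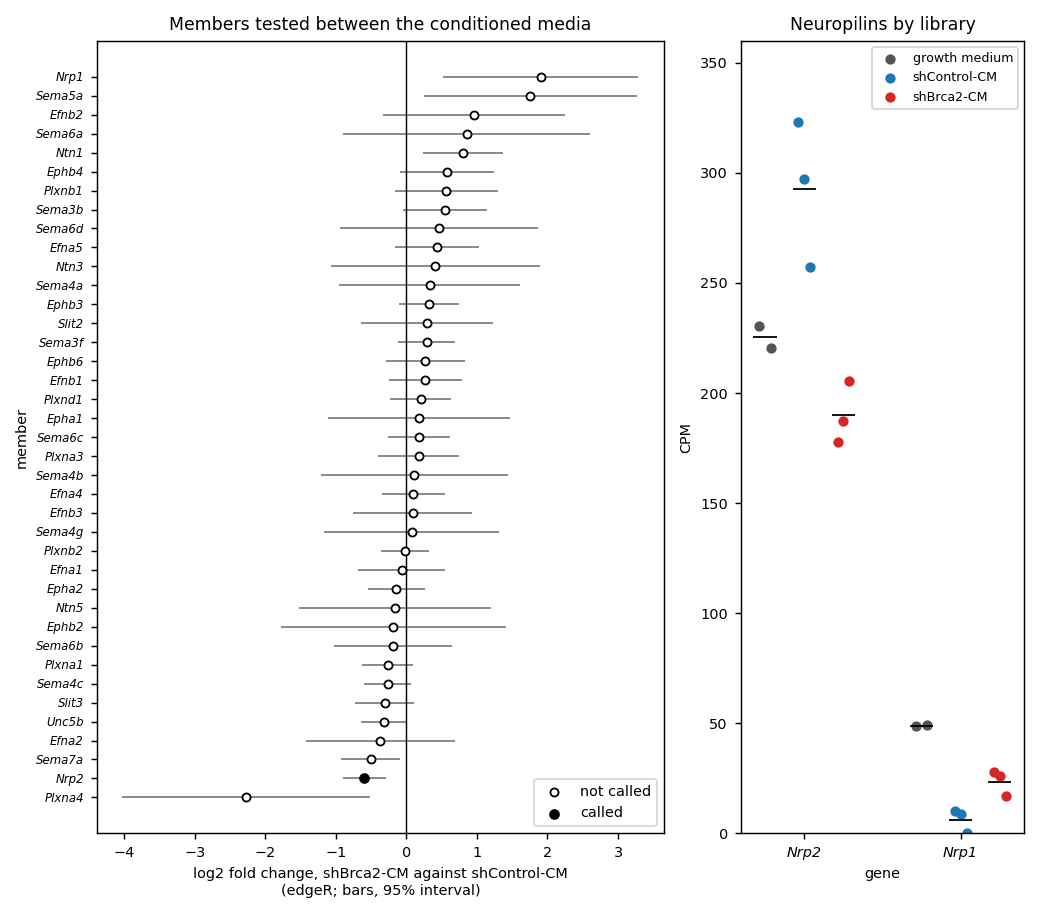
The left panel gives the log2 fold change of each guidance gene tested between shBrca2-CM and shControl-CM (edgeR, bars are 95% intervals) in rising order, with the called gene filled. The right panel gives the CPM of Nrp2 and Nrp1 in each library (points) with group means (lines). Nrp2 at -0.60 is the filled point, and its 3 groups are apart, with growth medium between the conditioned media.

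Of the 40 members tested between the conditioned media, 7 had an unadjusted p below 0.05 and 9 (22.5%) had no overlap between the groups, beside 19.5% of all genes tested. None of the 24 ligands tested was called by edgeR or by DESeq2, and 3 of them had an unadjusted p below 0.05: Ntn1, Sema5a and Sema7a. Ntn1 was higher in every shBrca2-CM library than in any shControl-CM library (0.80 ± 0.26, adjusted p = 0.172), as was Sema5a (1.76 ± 0.69, adjusted p = 0.282), and Sema7a was lower in every one (-0.51 ± 0.19, adjusted p = 0.26). Without shControl-CM replicate 1 these 3 genes, Nrp1 and Nrp2 were called, 5 members in all, with log2 fold changes of 0.89, 2.80 and -0.65 for the ligands. That library's removal also raised the calls over all genes, from 341 to 976. Among receptors, Unc5b gave -0.32 ± 0.15 (adjusted p = 0.362) without overlap. Plxna4, named after its values were seen, had 0, 1 and 2 counts with shBrca2-CM and 15, 3 and 7 with shControl-CM, a pooled ratio of 5.36 for shControl-CM over shBrca2-CM (exact 95% counting interval 1.64 to 27.7, adjusted p = 0.219).

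For most members the data bound a difference between the conditioned media only loosely. The log2 fold change was -0.02 (95% interval -0.36 to 0.33) for Plxnb2, -0.27 (-0.60 to 0.06) for Sema4c, -0.31 (-0.73 to 0.11) for Slit3, -0.14 (-0.55 to 0.27) for Epha2 and 0.27 (-0.25 to 0.79) for Efnb1. For Sema6b, the gene that rose most against growth medium, it was -0.19 (-1.03 to 0.64). Epha3, Epha4, Plxna2, Robo1, Robo3 and 4 other guidance genes had at most 3 counts in each conditioned library, too few to compare the media at this depth. The members' median was 0.17, beside 0.03 for all genes.

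Other genes of the pathway, from 2 lists of textbook members, were read from the same fits. The lists were chosen with earlier results of these data known, so their shares beside those of all genes describe the lists only. Of 35 co-receptors and other cues 23 were in the table, and 5 of 20 tested were called between the conditioned media, 3 higher and 2 lower with shBrca2-CM (25.0%, beside 3.09% of all genes). Without any 1 shBrca2-CM library 2 were called, where 1.61%, 1.18% and 1.48% of all genes were called without replicates 1, 2 and 3. Without shControl-CM replicate 2 the number was 3, where 1.53% of all genes were called. Cxcl12, a chemokine that guides neurons and leukocytes, had 1048, 1513 and 1180 CPM with shBrca2-CM and 475, 522 and 354 CPM with shControl-CM, while the growth medium libraries held 3939 and 3605 CPM. It was thus lower in both conditioned media than in growth medium (log2 fold changes of -1.59 ± 0.13 and -3.07 ± 0.19), and higher with shBrca2-CM than with shControl-CM (1.49 ± 0.18, adjusted p = 0.000729), a call kept without any 1 library. Sdc1, a heparan sulfate proteoglycan of the kind that binds Slits, showed the reverse, with 511, 470 and 556 CPM with shBrca2-CM, 794, 911 and 959 CPM with shControl-CM, and only 182 and 206 CPM in the growth medium libraries (-0.77 ± 0.12 between the conditioned media, adjusted p = 0.00537, also kept without any 1 library).

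Rgmb, a ligand of neogenin, was at 35.0, 28.5 and 30.1 CPM with shBrca2-CM, 9.51, 18.4 and 8.88 CPM with shControl-CM, and 11.2 and 10.5 CPM in the growth medium libraries, and so stood apart with shBrca2-CM alone (1.40 ± 0.33 between the conditioned media, adjusted p = 0.0533, and 1.51 ± 0.26 against growth medium, adjusted p = 3.69e-06). Between the conditioned media its call was lost without shBrca2-CM replicate 1, 2 or 3 (1.32 to 1.46). The proteoglycans Gpc1 (-0.65 ± 0.17, adjusted p = 0.0793) and Sdc2 (0.73 ± 0.16, adjusted p = 0.0369) were called there too, and those calls were lost without any 1 shBrca2-CM library or without shControl-CM replicate 2 (-0.73 to -0.53 and 0.63 to 0.75). The Gpc1 call was also lost with scaling by total counts, and the Sdc2 call with the likelihood ratio test of DESeq2 and after thinning. Against growth medium 12 of 23 were called with either medium (52.2%, beside 37.1% and 37.8% of all genes), 5 higher and 7 lower with shControl-CM and 7 higher and 5 lower with shBrca2-CM. Leaving out either growth medium library brought the first count to 7, where 16.4% and 19.3% of all genes were called. The 3 largest rises with shControl-CM were in Draxin, a netrin-binding secreted protein (2.94 ± 0.66, adjusted p = 0.00843, lost without growth medium replicate 1, at 2.79), Sdc1 (2.19 ± 0.17) and Gpc1 (1.37 ± 0.19). With shBrca2-CM Flrt2, an adhesion protein that binds UNC5 receptors, also rose (1.59 ± 0.41, adjusted p = 0.0013).

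Of 51 intracellular effectors 46 were in the table. Between the conditioned media edgeR and DESeq2 called 0 of 44 tested (lowest adjusted p = 0.171), with 6 at an unadjusted p below 0.05, and without shControl-CM replicate 1 edgeR called 5, where it called 9.09% of all genes. Against growth medium 19 of 46 were called with each medium, 41.3% in each case beside 37.1% and 37.8% of all genes, with 7 higher and 12 lower for shControl-CM and 8 higher and 11 lower for shBrca2-CM. Leaving out either growth medium library brought the first count to 10, beside the same 16.4% and 19.3% of all genes. Srgap1, which acts below Robos, had 8.74 and 7.28 CPM in growth medium and at most 1.24 CPM in any conditioned library, less than 3 counts stand for there. Its fitted falls (-3.93 ± 0.66, adjusted p = 0.00177, and -4.23 ± 0.84, adjusted p = 3.68e-05) are therefore loose in size. Both calls were lost without either growth medium library because its mean count was then too low (-4.03 to -3.75 and -4.30 to -4.03). Ngef, an exchange factor that binds EphA receptors, had 25.5 and 27.4 CPM in growth medium, 6.34, 1.94 and 0.683 CPM with shControl-CM and 4.37, 3.72 and 1.77 CPM with shBrca2-CM, and fell by -3.05 ± 0.49 (adjusted p = 0.00155) and -3.09 ± 0.40 (adjusted p = 3.12e-09), the first value reaching -4.42 without shControl-CM replicate 1. With shBrca2-CM the kinase Pak3 rose (1.90 ± 0.42, adjusted p = 0.000162) and the adaptor Nck1 fell (-1.94 ± 0.37, adjusted p = 2.21e-05, -2.61 without shBrca2-CM replicate 2, not called by DESeq2).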

How the data were processed

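Immortalized mouse PSCs in 8 cultures were profiled by a MARS-seq variant that counts 3′ ends. Per the labels and their processing notes, the authors used bcl2fastq, cutadapt, STAR 2.4.2a, HTSeq and DESeq2 with the mm10 build. The deposited values are raw read counts per gene, not normalized, and whether molecular identifiers were collapsed is not given in the sources used here. Where genes overlap or have near-identical copies, these counts cannot separate them. A further 1 per-sample column, titled DMEM like the control libraries, matched no sample and was not used. Columns of the authors' own comparisons were not used. Part of the organoids' genotype is not reported here.

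Counts were tested with edgeR 4.0.16 in R 4.3.3 (quasi-likelihood, TMM, after dropping genes whose counts summed to under 10 in the fitted samples), 1 fit per pair of media on all genes, with Benjamini-Hochberg adjustment over all genes tested. Calls required an adjusted p below 0.1, an absolute log2 fold change above 0.5 and a mean normalized count above 5, and the fitting was tested on simulated data. SE is the log2 fold change over the root of F. For members, where all libraries of a group were at 0, bounds used 3 counts in its smallest library, and where they held 1 to 3 counts, pooled counts were compared with an exact 95% binomial interval. Other pathway genes and markers kept their fitted values. Named genes were members called between the conditioned media, the 10 largest rises and falls among calls in each comparison with growth medium, and the member of each family with the highest mean CPM, with others where a family statement needed them. Of the other pathway genes, those called between the conditioned media and the 3 largest rises and falls were named. Members and lists were chosen with earlier results of these data known. Alternatives were DESeq2 1.42.0, other scalings and filters, all groups in 1 fit, a replicate block, stricter thresholds, thinning and leaving out each library. Replicates are separate domes of 1 line, so p-values measure the spread between domes. Library totals ran from 655996 to 5476988 counts, and replicate libraries differed by more than counting noise.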

Additional observations from a re-analysis of the deposited data

Results flagged for a closer look

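Nrp2 was picked out because its response differed between the conditioned media by a direct test: its log2 fold change with shBrca2-CM against shControl-CM was -0.60 ± 0.14 (SE, 3 against 3 libraries, edgeR adjusted p = 0.0533), lower in 3 of 3 shBrca2-CM libraries. The call was lost in 4 of the 6 fits that left out a library.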

How the results depend on the processing

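Between the conditioned media the members called numbered 1, and 2 with all groups in 1 fit, 0 with scaling by total counts, 0 at an adjusted p below 0.05 with an absolute log2 fold change above 1, and 0 to 5 when single libraries were left out. For shControl-CM against growth medium 16 became 10 at those stricter thresholds, 10 after thinning to the smallest total, and 7 to 17 without single libraries. For shBrca2-CM against growth medium 26 became 11, 15, and 17 to 23. The stricter thresholds thus called 20.4% of members tested with shControl-CM and 22.4% with shBrca2-CM, beside 19.7% and 18.1% of all genes. DESeq2 gave 1, 11 and 19, the last 2 being 22.4% and 38.8% of members tested, beside 29.0% and 30.4% of all genes. Over all genes tested, scaling by total counts put 249 of 369 calls between the conditioned media higher, in place of 170 of 341, and 1798 of 4469 with shControl-CM, in place of 2200 of 4488. Replicate numbers did not pair the samples (correlations of -0.02, -0.01 and 0.09 between same-numbered conditioned libraries), and a replicate block gave 1, 15 and 20 calls. For single genes, 1102 alternative values stayed on their side of the call (26 of them changed sign, in genes called in neither fit), 120 lost a call, 13 gained one and 1 called value changed sign: Sema3b with shBrca2-CM against growth medium was -0.0627 after thinning. The causes were not tested. Depth limits the scarce members: 9 had at most 3 counts in each conditioned library.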
